A study of Triticum aestivum with 39 samples.

Results

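The 100 probesets described here were those of the Wheat GeneChip with a high signal in every tissue and the smallest difference between tissues. They were chosen from the measured values, in steps. Probesets with a wheat sequence identifier were kept if they carried neither a suffix that marks probes shared between sequences (_s_at, _x_at, _a_at) nor an A1 label, which left 39564 of 61290 probesets. The 110 of these that are paired with a named gene were dropped, which left 39454. Of these, 1371 (3.47%) had a mean level of at least 10 in each of 13 tissues, and the 100 members are the 7.29% of these candidates with the smallest difference between the highest and the lowest tissue mean. The other 1271 candidates are the set they are compared with. A level is log2(signal + 16), so that a level of 10 is a signal of 1008, and a difference between levels is a log2 fold change.

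All RNA came from untreated plants of the wild-type wheat cultivar Chinese Spring, with 3 replicates for each tissue and 39 arrays in all. Each collection pooled 10 seeds or plants, so that no value belongs to a single plant. Germinating seed gave coleoptile, root and embryo, and seedlings of 10 cm gave root, crown and leaf. The tissue labelled germinating seed embryo appears as mesocotyl in the paper's list of tissues, and the label's name is kept here. Older plants gave the immature inflorescence of 2 to 3 cm and, 2 days before anthesis, the floral bracts, pistil and anthers, and later the caryopsis at 3 to 5 days after pollination (DAP) and the embryo and endosperm at 22 DAP. The methods call the replicates biological, and p-values here measure the spread between these collections.

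Genes with a steady transcript level in all tissues are often those of processes that every living cell runs, such as translation, protein turnover and energy metabolism, and they serve as references to which other transcripts are scaled. No transcript is constant in all conditions, and a reference is picked by how little it varies in the tissues at hand. On this array a transcript is read by a set of short probes, and bread wheat is hexaploid, so that the signal of a probeset usually adds up closely related gene copies of its subgenomes. Signals were scaled to a common trimmed mean on each array, which leaves out the brightest and dimmest probesets. A stable level is thus stable relative to that trimmed mean, and does not mean a stable number of transcripts per cell.

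The tissues were checked by genes with a known site of expression. Of 25 probesets for the leaf genes PRK, OEE2, petC and rbcl, 15 were highest in seedling leaf, and 10, all of petC or rbcl, were not. Of 6 probesets for the endosperm genes GAG56D, gli-2, ALP and Serpin-Z2B, 5 were highest in 22 DAP endosperm, all 4 for Em, WGA2 and rab were highest in 22 DAP embryo, and the probeset of the anther gene raftin1a was highest in anthers. No marker was fixed for the other tissues. The trimmed mean signal lay between 500.2 and 500.4 on every array and the median signal between 59.4 and 92.4. The control transcript dap, which is added to RNA before labelling, averaged at most 4.93 on the 9 arrays of floral bracts, pistil and seedling root, against at least 8.71 on the other 30 arrays. Why these 3 tissues differ from the rest in this control was not tested.

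Over the members, the difference between the highest and the lowest tissue mean ran from 0.48 to 1.12, with a median of 0.97, a 1.96-fold change. In the other candidates it ran from 1.12 to 5.27 with a median of 2.06, a 4.16-fold change. These values chose the members and are given as a description. In 58 of the 100 members the difference was under 1, that is, under a doubling. The plot of the difference against level shows the members as the lower edge of the cloud of candidates at all levels from 10.38 to 14.61.

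**Figure D1:**
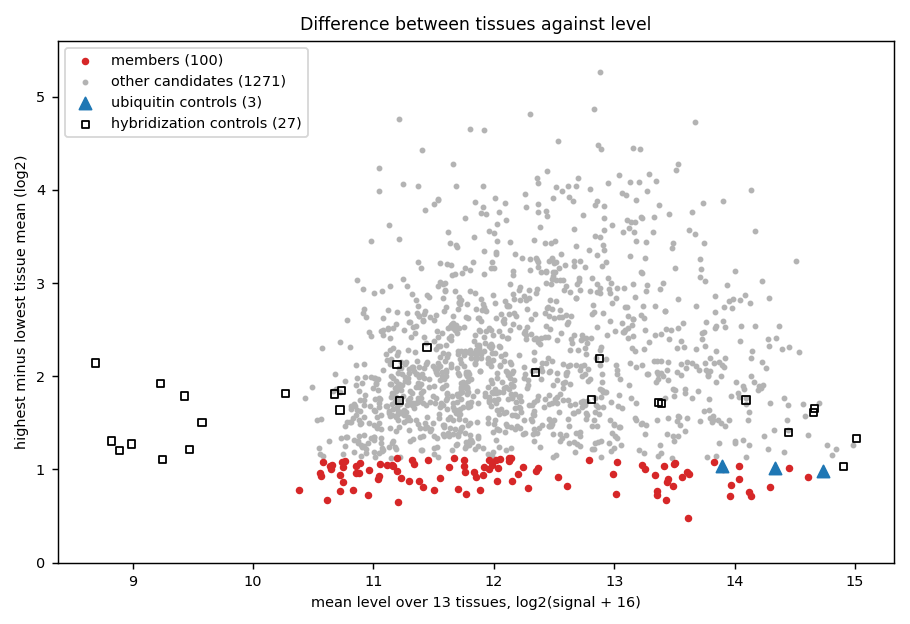
Mean level over 13 tissues, log2(signal + 16), against the difference between the highest and lowest tissue mean (log2), for the 100 members (red), the 1271 other candidates (grey), 3 ubiquitin control probesets (triangles) and 27 hybridization controls (squares). The members span levels from 10.38 to 14.61, and the ubiquitin controls, at differences of 0.99 to 1.04, lie among them in height.

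The probeset that varied least was Ta.2848.1.S1_at, for which the files and reference tables give no gene name. Its 39 arrays ran from 13.27 to 14.05 with a median of 13.66. The 3 arrays of germinating seed coleoptile, where it was highest, gave 13.76, 13.98 and 13.68, and those of floral bracts, where it was lowest, gave 13.27, 13.42 and 13.29. The arrays of these extreme tissues did not overlap, but the next tissues did: its mean was within 0.25 of its own average in 12 of 13 tissues. The means were 13.81 ± 0.15 in coleoptile and 13.33 ± 0.085 in bracts (SD, n = 3 each), a 1.40-fold difference.

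The step from the first to the second member was wider than any from there to the tenth. Ta.4549.1.S1_at came second, with a difference of 0.65 around a level of 11.20. Its germinating seed embryo arrays read 11.45, 11.60 and 11.58, and its 22 DAP endosperm arrays read 10.85, 10.96 and 10.86. Then came Ta.22981.1.S1_at (0.67), Ta.25019.1.S1_at (0.67), Ta.22952.1.S1_at (0.71), Ta.2679.1.S1_at (0.71), Ta.14396.1.S1_at (0.73), Ta.9903.1.S1_at (0.73), TaAffx.129121.1.S1_at (0.74) and Ta.5993.1.S1_at (0.74). The extreme tissues of these 10 were not shared: Ta.2848.1.S1_at and Ta.25019.1.S1_at were highest in coleoptile and lowest in bracts, Ta.22981.1.S1_at and Ta.2679.1.S1_at were highest in 22 DAP embryo and lowest in seedling leaf, and Ta.22952.1.S1_at was highest in anthers, at 14.41 ± 0.087, and lowest in pistil, at 13.70 ± 0.084 (SD, n = 3 each).

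**Figure D2:**
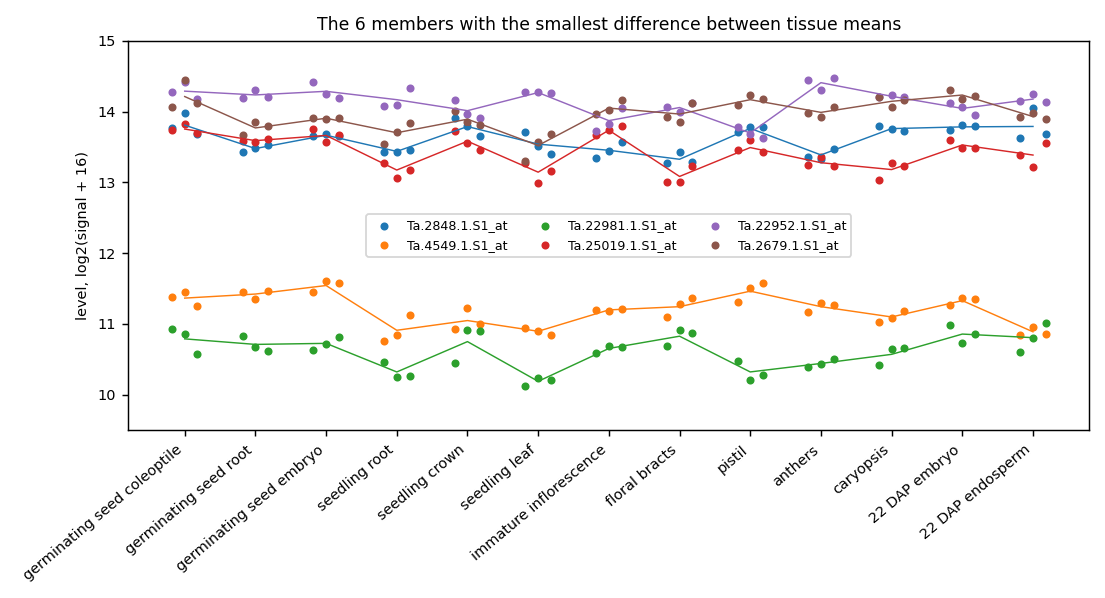
Level, log2(signal + 16), of the 6 members with the smallest difference between tissue means, in 13 tissues. Points are the 3 replicate arrays of a tissue and lines join the tissue means; each probeset keeps to a band of at most 0.71 between its highest and lowest tissue mean, at levels from about 10.61 to 14.13.

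The edge of the set is narrow. The last 3 inside were Ta.7259.1.S1_at, TaAffx.467.1.S1_at and Ta.7132.1.S1_at, at 1.120, 1.120 and 1.121. The first 3 outside were Ta.13851.1.S1_at, Ta.28553.10.S1_at and Ta.23008.1.S1_at, at 1.125, 1.126 and 1.128. These 6 differ by far less than the median replicate SD of a member, 0.114. On the other criterion, Ta.5043.1.S1_at (difference 0.97) missed the minimum with a lowest tissue mean of 9.998, and Ta.9511.1.S1_at (difference 0.66), with a lowest mean of 9.97, would otherwise have come between the second and the third member.

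A small difference also occurred among probesets of low signal. Of the 39454 probesets the rule started from, 5906 had a lowest tissue mean under 10 and a difference no larger than that of the last member. In 5491 of these that mean was under 6, in 318 it was 6 to 8 and in 97 it was 8 to 10. At levels under 6 the offset of 16 narrows differences, so a small difference there does not show a steadily expressed transcript. Within the candidates, members made up 21 of 96 at levels of 10 to 11, 33 of 541 at 11 to 12, 17 of 434 at 12 to 13, 22 of 234 at 13 to 14, and 7 of 66 at 14 to 15. The share was thus highest at the lowest levels, where the minimum leaves least room below the mean, and smallest at 12 to 13.

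The brightest members were Ta.1058.2.S1_at (mean level 14.61), Ta.1892.1.S1_at (14.45), Ta.27117.1.S1_at (14.29), Ta.22952.1.S1_at (14.13) and Ta.23454.1.S1_at (14.12). Ta.1058.2.S1_at read 15.25, 15.16 and 15.11 on the 22 DAP endosperm arrays and 14.23, 14.12 and 14.40 on those of seedling root, with no overlap. Ta.1892.1.S1_at was highest in anthers (15.08 ± 0.029) and lowest in floral bracts (14.07 ± 0.061; SD, n = 3 each). The dimmest were Ta.2875.1.S1_at (10.38), Ta.14345.1.S1_at (10.55), TaAffx.38326.1.S1_at (10.57), Ta.4238.1.S1_at (10.58) and Ta.22981.1.S1_at (10.61). Ta.2875.1.S1_at was highest in pistil, at 10.79 ± 0.10, and lowest in coleoptile, at 10.01 ± 0.13 (SD, n = 3 each). Over all members and arrays the level lay between 9.66 and 15.26, and 94 of 100 members were at 10 or more on each of the 39 arrays.

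Of the 100 members, 97 had an identifier of the Ta. class and 3 of the TaAffx. class. In the 39454 probesets the rule started from these classes were 38.8% and 61.2%, but among the other candidates Ta. probesets were already 94.9%, so that the level, and not the small difference, goes with most of this shift. Every member had an identifier stem of its own, so that no 2 members belong to the same sequence cluster. Only 5 members were paired with a gene, each with a locus that has a number and no name: Ta.6227.1.S1_at with LOC606344, Ta.181.1.S1_at with LOC542789, Ta.7443.1.S1_at with LOC100037550, Ta.248.1.S1_at with LOC542845 and Ta.22845.1.S1_at with LOC542904. The tables give no product for these loci, so no member could be assigned to ribosomal proteins, translation factors, the proteasome, respiration, histones, chaperones or the cytoskeleton. The count in each of these lists was 0, which the dropping of named genes fixes.

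These 5 can be followed by tissue. Ta.6227.1.S1_at (LOC606344) read 13.04, 13.11 and 13.08 in 22 DAP endosperm, where it was highest, and 12.17, 12.28 and 12.32 in immature inflorescence, where it was lowest. Ta.181.1.S1_at (LOC542789), Ta.7443.1.S1_at (LOC100037550) and Ta.22845.1.S1_at (LOC542904) were also highest in 22 DAP endosperm, at 11.75, 11.31 and 13.53. Their lowest means were 10.87 in seedling leaf, 10.35 in anthers and 12.48 in seedling leaf. Ta.248.1.S1_at (LOC542845) had another shape: its floral bract arrays read 12.48, 12.47 and 12.69 and its pistil arrays 12.68, 12.44 and 12.41, and its immature inflorescence arrays, the lowest, read 11.42, 11.54 and 11.66.

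The replicate error of the members was small. The pooled SD within tissues had a median of 0.114 over members, 0.133 over the other candidates and 0.468 over all retained probesets. Since a small difference between means favours a small error, this is a description. The difference between tissues was 3.55 to 14.2 times the replicate SD, with a median of 8.08, against a median of 15.3 in the other candidates. In the limma F test over the 13 tissues, all 100 members varied at an adjusted p under 0.05, with adjusted p from 5.86e-10 to 0.0299 (Benjamini-Hochberg), beside 70.8% of all retained probesets. All 1271 other candidates did so too. The members were chosen on the same values, so nothing is read from this count except that their tissue means were not equal within replicate error.

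The largest of these p-values belonged to Ta.28734.2.S1_at, the member with the largest replicate SD, 0.259. Its pistil arrays read 13.28, 12.39 and 13.08, and its seedling leaf arrays read 12.72, 13.58 and 13.97, while all other arrays were at 13.12 or more. Pistil replicate 2 and seedling leaf replicate 1 stand apart from the other arrays of their tissues.

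A clearer shape was seen where all 3 arrays of a tissue lay beyond all other arrays. This held for the lowest tissue in 14 members and for the highest tissue in 26, and for at least 1 of them in 35 members. No such count is given for the other candidates, so these numbers only describe the members. In the other members the arrays of the extreme tissues overlapped with those of neighbouring tissues in the order. The median step between the highest and the next highest tissue mean was 0.082, and that between the lowest and the next lowest was 0.085, both under the median replicate SD. A member had a median of 8 of 13 tissue means within 0.25 of its own mean, and from 2 to 12.

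Seedling leaf was the tissue in which members were most often lowest, in 30 of 100, followed by 22 DAP endosperm with 17, anthers with 11, floral bracts with 10 and immature inflorescence with 9. Among the other candidates seedling leaf was the lowest in 23.6%, anthers in 23.8% and endosperm in 11.9%. No member was lowest in germinating seed root or germinating seed embryo, but few of the other candidates were either (2.12% and 0.94%). The tissues of the highest mean were spread more evenly: anthers and pistil 16 each, coleoptile 14, 22 DAP embryo and endosperm 12 each. Then came immature inflorescence 8, caryopsis 6, floral bracts 5, germinating and seedling root 4 each, germinating seed embryo 2, seedling leaf 1 and crown 0. Among the other candidates anthers were highest in 22.0%, endosperm in 16.4%, coleoptile in 15.4%, 22 DAP embryo in 11.96% and pistil in 7.71%. Of these tissues, pistil had the share that was most raised in the members. Caryopsis, floral bracts, seedling root and germinating seed embryo were highest in 2.91%, 2.75%, 2.83% and 1.42% of the other candidates. Their shares in the members were thus larger too, on small counts. The rule used the same tissue means, so these shares are a description.

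The low leaf values were moderate and broad. Relative to each member's own mean, the median deviation in seedling leaf was -0.27, with 78 of 100 members below their mean, against -0.53 and 78.1% in the other candidates. Among the 30 members lowest in leaf the deviation ran from -0.78 to -0.28, and in 4 of them all 3 leaf arrays were below every other array. Ta.14373.1.S1_at is such a case, with 13.71, 13.89 and 13.90 in pistil, its highest tissue, and 12.69, 12.85 and 12.87 in leaf. Ta.22845.1.S1_at is another, with 12.45, 12.55 and 12.46 in leaf. Only Ta.10431.1.S1_at was highest in leaf, at 11.73 ± 0.072 (SD, n = 3). Floral bracts had the next lowest median deviation, -0.15, with 67 members below their own mean, against -0.25 and 66.9% in the other candidates.

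Anthers set members apart most often on the high side. Of the 16 members highest in anthers, 11 had all 3 anther arrays above every other array, with a median step of 0.23 to the next tissue. Anthers were also the most frequent highest tissue of the other candidates, in 279 of 1271 (22.0%), so a highest mean in anthers is not particular to the members. How often the anther arrays of other candidates lay above every other array was not counted. Ta.3097.1.S1_at read 14.15, 14.22 and 14.25 in anthers, and 13.33, 13.08 and 13.29 in floral bracts, its lowest tissue. Ta.2740.1.S1_at read 11.58, 11.37 and 11.57 in anthers, 11.12, 11.05 and 11.21 in pistil, the next tissue, and 10.34, 10.44 and 10.48 in leaf. The widest step on the high side belonged to Ta.14227.1.S1_at, whose endosperm arrays read 14.54, 14.56 and 14.61, above anthers at 14.23, 14.13 and 14.09. At the same time 11 members were lowest in anthers, so that in the set as a whole the anther deviation had a median of -0.039.

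**Figure D3:**
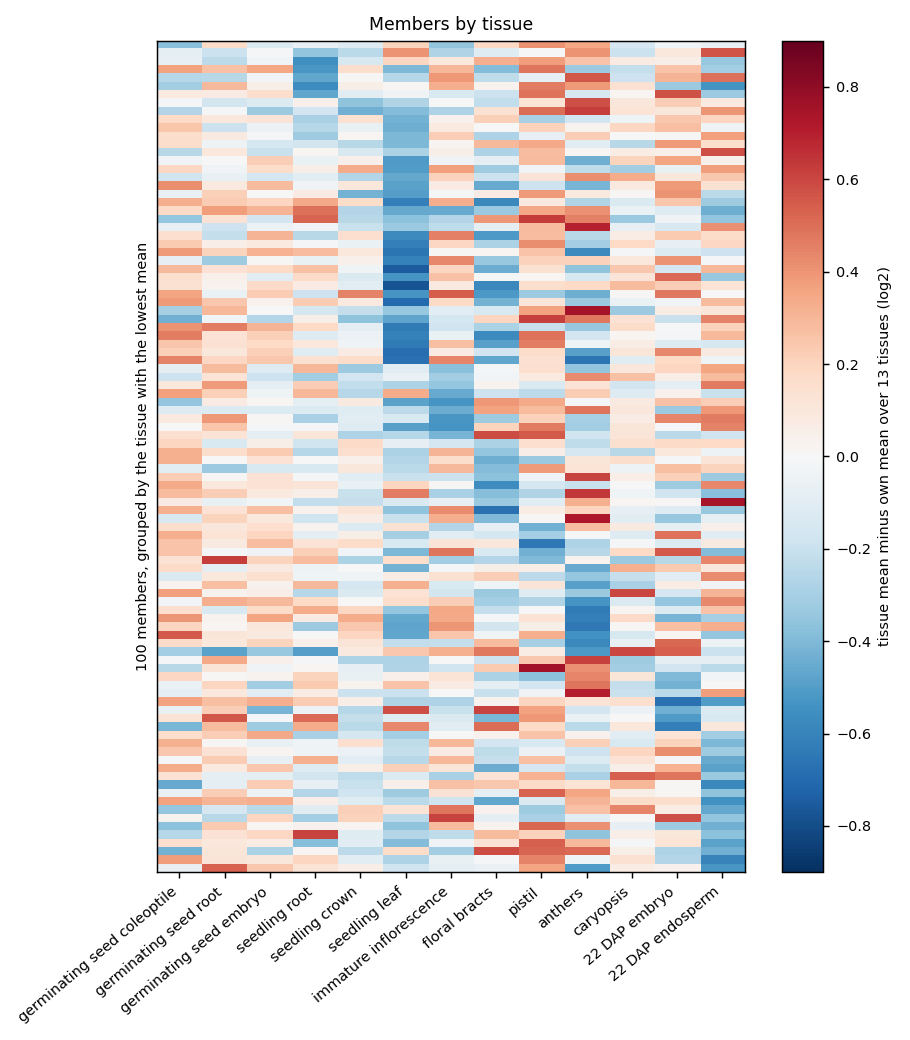
Tissue mean minus own mean over 13 tissues (log2) of each of the 100 members (rows), grouped by the tissue with the lowest mean and, within a group, ordered by the size of the difference. Blue is below and red above the member's own mean; the seedling leaf column is the bluest, with a median of -0.27, and anthers hold both strong red and strong blue.

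The members did not move as one block. Over 13 tissue means the correlation between 2 members had a median of 0.10 over 4950 pairs and ran from -0.86 to 0.93, and the median was 0.08 in pairs of other candidates. All points share the same 39 arrays and their scaling, so these values are descriptions. The most similar pair was Ta.22845.1.S1_at and Ta.2606.1.S1_at (r = 0.93 over 13 tissue means), both lowest in seedling leaf. The steadiest ratio over the 39 arrays was that of Ta.11254.1.S1_at to Ta.2740.1.S1_at, with an SD of 0.153 and log2 ratios between 0.029 and 0.66, although both members were highest in anthers and each had a difference of 0.93 or more on its own. The median SD of a ratio was 0.396 and the largest was 0.722.

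Averages over several members are given as a description, since the rule used these values and averaging profiles that correlate weakly narrows their range. The mean of the 10 with the smallest difference was highest in 22 DAP embryo, at 12.77, and lowest in seedling leaf, at 12.41, a difference of 0.37. The mean of all 100 was highest in pistil, at 12.23, and lowest in seedling leaf, at 11.87, a difference of 0.36. Seedling leaf was the lowest tissue in both averages.

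A check on arrays that had no part in the choice used the replicate numbers. The rule was applied to 2 replicate numbers and the difference between the highest and lowest of the 13 arrays was read in the third. With replicate 1, 2 or 3 left out the median was 1.05, 1.05 and 1.02 for the 100 chosen. It was 2.16, 2.05 and 2.10 for the probesets not chosen whose tissue means were all at 10 or more on the arrays used. There were 1272, 1259 and 1263 of these, and they can include members. Of the 100 chosen, 100, 99 and 100 were below the median of the probesets not chosen, and 93, 96 and 97 had each left-out array at 10 or more. Of these 3 lists, 85, 85 and 89 probesets were among the members, and 70 members were in all 3. The left-out arrays are of the same tissues and laboratory, so this shows how far the values repeat between replicates and nothing about other plants or conditions.

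Sister probesets, those with the same identifier stem, give readings that the rule did not use. Only sisters that the rule excluded for their suffix are compared, since they could not compete for a place. The members had 86 such sisters in 48 stems, and 35 of them, in 24 stems, also had a mean of 10 or more in all tissues. The median difference of these 35 was 1.24, with 13 (37.1%) no larger than that of the last member. For stems of other candidates with no member, 467 such sisters had a median difference of 2.09, and 17 (3.64%) were that small. Sisters can share probes or transcripts with the member, so they are not independent of it. Over 13 tissue means a member and its sister at 10 or more had a median r of 0.76, from 0.04 to 0.99.

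Sisters varied more than their member in 28 of 35 cases, which is a description, since the members were chosen for a small difference and the sisters were not. The most stable member, Ta.2848.1.S1_at, had a difference of 0.48, against 0.80 in its sister Ta.2848.1.S1_x_at. Ta.27117.1.S1_at (0.81) had sisters on both sides: Ta.27117.2.S1_a_at at 0.61 and Ta.27117.6.S1_x_at at 0.63 were flatter, and Ta.27117.4.S1_x_at at 2.77 was the most variable of the 35. Ta.1058.2.S1_at (0.92) had 3 suffixed sisters at 0.70, 0.74 and 0.81. Ta.1058.4.S1_at, of the same stem but without a suffix, had a difference of 2.79 and r = -0.49 with the member. Ta.7443.1.S1_at had 0.96, against 0.70 in Ta.7443.2.S1_a_at, which is paired with the same locus. Of the 35 suffixed sisters, Ta.28734.1.S1_x_at had the lowest correlation with its member, with r = 0.04 and a difference of 1.24.

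**Figure D4:**
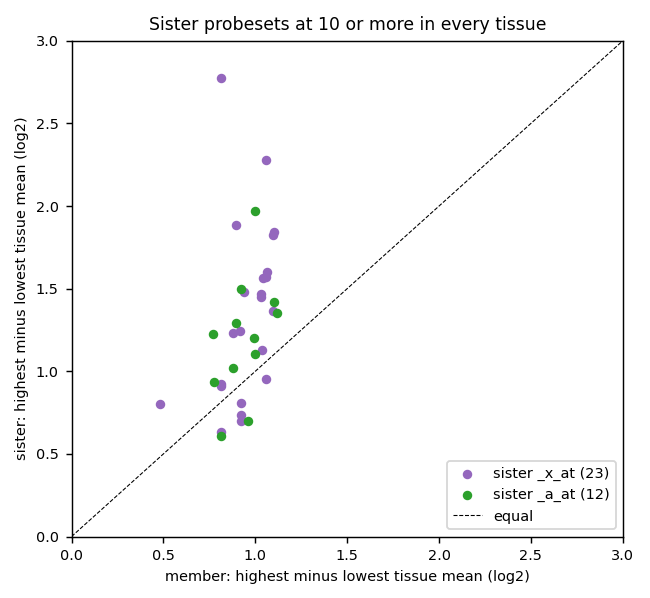
Difference between highest and lowest tissue mean (log2) of 35 suffixed sister probesets with a mean of 10 or more in every tissue (vertical axis) against that of the member with the same stem (horizontal axis). Colours give the suffix, and the dashed line marks equal values; 28 sisters lie above the line and 7 below it, and only the members were chosen for a small difference.

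Reference genes in common use can be set beside the members. Ubiquitin, which tags proteins for degradation, has 3 control probesets on the array, for the 3′ part, the middle and the 5′ part of the transcript. They had levels of 13.90, 14.34 and 14.74 and differences of 1.04, 1.02 and 0.99, and 73, 63 and 55 candidates were flatter. The 3′ probeset read from 13.44 to 14.59 over the 39 arrays with a median of 13.81. By difference alone these controls would have fallen among the members.

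The control probesets of the other wheat transcripts would not. The 4 actin probesets, for a protein of the cytoskeleton, had differences of 7.37 to 9.52, with means of 14.93 to 15.67 in anthers. Probesets for elongation factor 1-alpha (ef1a) had differences of 1.45 to 1.85, and those for the glycolytic enzyme GAPDH had 1.40 to 2.19, but their levels were 5.90 to 7.71 and 5.83 to 7.87, far under the minimum. The 18S rRNA control had a difference of 6.83. Of 10 probesets named for tubulin, the subunit of microtubules, Ta.1544.1.S1_at had a difference of 2.92, Ta.212.1.S1_at of 3.39 and Ta.214.1.S1_at of 3.55, all lowest in anthers, and the suffixed Ta.812.1.S1_x_at had 1.21. No probeset was found by name for cyclophilin.

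Dropping named genes did not change who the members were: 15 probesets of named genes had a mean of 10 or more in all tissues, and none of them had a difference as small as the last member. The closest was Ta.27777.1.S1_at, named ALP, with 1.19. It was followed by the translation initiation factors Eif4B (1.48) and eIF-4E-1 (1.93), and the largest, of the phosphoglycerate kinase Pgk-1, was 5.28.

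Some probesets were also followed by quantitative PCR, for which anthers and pistil were left out. The values given here are those of the arrays. Of 12 such probesets, Ta.3039.1.S1_at is a member and ranked 16. Its arrays ran from 11.49 to 12.47 with a median of 11.88. Its 22 DAP endosperm arrays read 12.47, 12.31 and 12.16, above all others, and its anther arrays, the lowest, read 11.50, 11.49 and 11.62, which overlapped with pistil and caryopsis. TaAffx.46790.1.S1_at had a difference of 0.75 but a lowest tissue mean of 9.87, and Ta.13729.1.S1_at, with 1.21, fell outside the 100.

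The array controls can be set beside the members on each array. The median member stood, relative to its own mean over tissues, at -0.063 to -0.007 on the 3 endosperm arrays and at -0.32 on the seedling leaf array of replicate 1, and its highest value was 0.20, on a pistil array. The other candidates were at -0.55 on that leaf array. Hybridization controls are transcripts added at fixed amounts to the labelled RNA. Over 27 probesets they had differences of 1.03 to 2.31, with a median of 1.72, which is above the difference of any member. Of the 27, however, 2, at 1.03 and 1.11, were below the last member. The hybridization controls stood on average at 1.13 to 1.24 on the endosperm arrays and at 1.07 on that leaf array. They were lowest, at -0.62, on a germinating seed root array. The ubiquitin controls stood at 0.61 to 0.63 on the endosperm arrays and 0.58 on that leaf array. What part the scaling has in the stability of the members was not tested beyond applying other scalings.

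**Figure D5:**
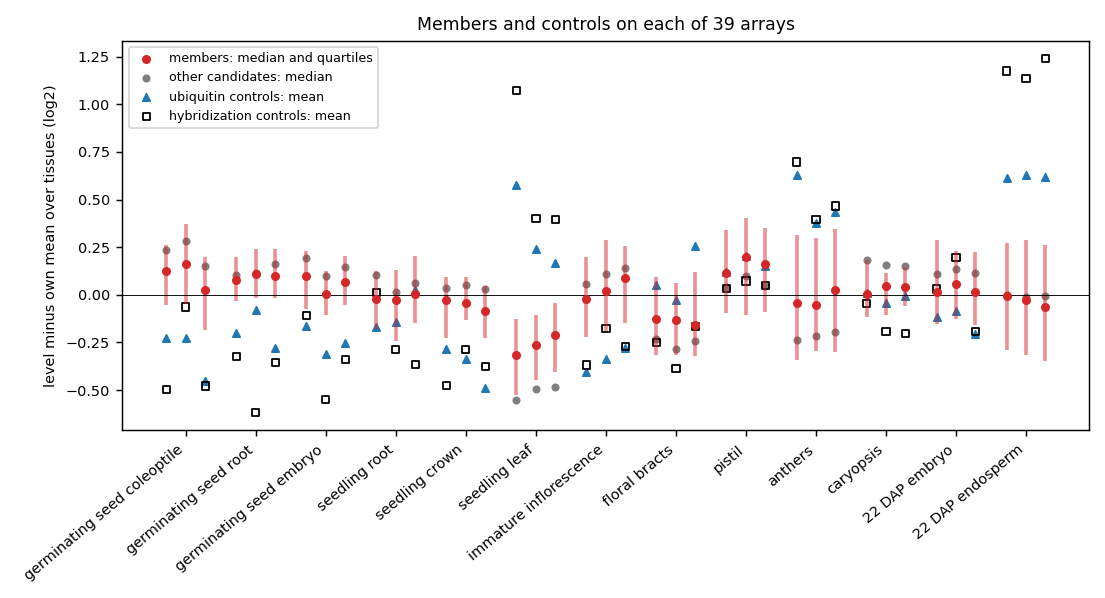
Level minus own mean over tissues (log2) on each of 39 arrays, 3 for each tissue: median and quartiles of the 100 members (red), median of other candidates (grey), mean of 3 ubiquitin controls (triangles) and of 27 hybridization controls (squares). The member median keeps between -0.32 and 0.20, whereas hybridization controls reach 1.24 in 22 DAP endosperm.

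After shifting arrays to equal hybridization controls the median difference of the members was 1.93, against 2.72 for the other candidates, and only 21 members would be chosen again. With quantile normalization 69 would be chosen again, and with arrays shifted to equal medians 67. Applied in turn, these 3 scalings all kept 19 members. Over 19 alternatives in all, 4 members were chosen every time: Ta.2848.1.S1_at, Ta.22952.1.S1_at, Ta.8151.1.S1_at and Ta.2042.1.S1_at. The alternative with a minimum of 11 could keep only members with every tissue mean at 11 or more. Ta.8151.1.S1_at read 11.80, 11.94 and 11.86 in 22 DAP endosperm and 11.05, 11.16 and 11.07 in seedling leaf. Ta.2042.1.S1_at read 14.01, 14.02 and 14.02 in endosperm and 12.98, 13.23 and 13.26 in leaf. These 4 were picked out after their values were seen.

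The 3 tissues with low dap control were set against the other 10. This grouping rests on the control level alone, and no label gives a batch for it. In the limma contrast, 24 members were higher in floral bracts, pistil and seedling root (19.5% of all retained probesets were) and 27 were lower (16.2% were), at an adjusted p under 0.05, and 49 passed in neither direction. The balance depended on the scaling: 36 were higher and 15 lower with quantile normalization, and 34 were higher and 1 lower with arrays shifted to equal hybridization controls. With arrays shifted to equal medians it stayed near the main result, with 21 higher and 32 lower. The counts higher and lower were 17 and 22 without replicate 1, 11 and 12 without replicate 2, and 10 and 14 without replicate 3. Shares over all retained probesets are given for the main fit only, so these changes cannot be read as particular to the members. In the main fit, 331 of the 1271 other candidates were higher and 539 were lower. The rule that chose the members used the same tissue means, so the counts and values of members here are a description. Ta.13279.3.S1_at, picked as the member with the largest value, had a mean of 11.48 in the 3 tissues and 10.81 in the other 10. The difference was 0.67 ± 0.087 (SE, limma). Ta.248.1.S1_at followed with 12.38 and 11.84, a difference of 0.54. On the lower side Ta.4238.1.S1_at averaged 10.24 in the 3 tissues and 10.68 in the other 10, a difference of -0.45. Tissue and whatever goes with the dap control cannot be told apart in this contrast.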

How the data were processed

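Deposited values were signal intensities from the Affymetrix MAS5 procedure, which per the labels the authors ran on each array. The MAS5 release was not given in the sources used here. The trimmed means show that each array was scaled to a common target. The paper's methods describe RMA values, which were not used here. Levels were log2(signal + 16). The members and gene lists were chosen with earlier results of these data known. Tissue means were averages of 3 arrays. The F test and contrast were fitted with limma 3.58.1 (R 4.3.3) over all 39564 retained probesets, with 1 mean per tissue, eBayes and Benjamini-Hochberg adjustment at 0.05, and were tested on simulated data. Other values were computed with Python 3.11.15. The number of arrays limits precision.

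Probesets were named by rule: the 10 with the smallest difference, the 5 brightest and 5 dimmest, those paired with a locus or measured by quantitative PCR, and 3 on each side of the limit of 100. Reference and control genes and examples of tissue shape, sisters and pairs were added, the examples after their values were seen. Gene names came from the platform annotation, and 1273 probesets were paired with a gene. Other scalings, offsets, minimums and measures of spread, single replicates, left-out replicates and tissues, a replicate block and other limma settings were tried. No probe sequence was used.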

Additional observations from a re-analysis of the deposited data

How the results depend on the processing

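Membership depended on the scaling, the tissues and the measure of spread. The members chosen again were 21 with arrays shifted to equal hybridization controls, 26 by median absolute deviation, and 85 to 89 with a replicate left out. In alternatives added after seeing the data they were 65 without seedling leaf, 46 without seedling leaf and 22 DAP endosperm and 57 by mean SD of log2 ratios. With a minimum of 11 they were 63. That count is fixed in advance, as the members whose tissue means are all at 11 or more. The median difference of the members was 0.986 with quantile normalization, 1.16 with equal medians, 1.93 with hybridization controls, 0.955 with an offset of 64, 0.902 without floral bracts, pistil and seedling root, 0.930 without leaf, 0.915 without leaf and endosperm, and 0.965 to 0.984 with a replicate left out. For the other candidates it was 2.20 with equal medians, 2.72 with hybridization controls, 1.99 without the 3 tissues, 1.98 without leaf and 1.83 without leaf and endosperm. The median replicate SD was 0.210 with hybridization controls. On left-out arrays the median difference averaged 1.04 (1.02 to 1.05) for the probesets chosen and 2.10 (2.05 to 2.16) for the others. In the contrast of the 3 tissues, 10 to 17 members were higher and 12 to 22 lower with a replicate left out. There were 36 higher and 15 lower with quantile normalization, 21 higher and 32 lower with equal medians, and 34 higher and 1 lower with hybridization controls. No share over all retained probesets is given beside these counts, so they only describe the members. With a replicate left out 88 to 98 members passed the F test, beside 24415 to 24698 of all 39564 retained probesets. Testing all probesets gave 47465 that varied over tissues, in place of 28020. The causes were not tested. Replicate numbers did not pair the arrays, with correlations of same-numbered deviations between -0.03 and 0.06 over 78 tissue pairs, and the replicate block gave 27877 probesets, 24 members higher and 26 lower. With 3 arrays per tissue, members near the limit of the set are not told apart from probesets just outside it.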
